A study of Mus musculus with 13 samples.

Results

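The bulk RNA-seq comparison reported here set the brains of mice at the end of 4 weeks on cuprizone (CPZ) against those of mice on control chow (CTL), across all genes that passed a filter on low counts. Its members were the 4 libraries labelled Cuprizone and the 5 labelled Control, 9 of the 13 libraries of the series, with 1 library per mouse. CPZ mice ate chow with 0.3% cuprizone for 4 weeks and were collected at week 4. CTL mice ate control chow for 6 weeks and were collected at week 6, so that the 2 groups differed in time on study as well as in diet, and the effects of the 2 cannot be told apart. The other 4 libraries, from mice returned to control chow for 2 weeks after cuprizone (RCV), entered only the estimate of the spread. The labels describe all mice as male and 6 to 8 weeks of age, with no genetic modification named. The paper states an older age. The strain was C57BL/6J. The protocols in the labels and the methods of the paper state fewer mice per group than there were libraries, whereas a figure legend of the paper counts as many samples in each group as there were libraries, and every library was used. Each library was made from 1 snap-frozen hemisphere, so that the brain regions it held were mixed.

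Cuprizone is a copper chelator that, given in the diet, kills mature oligodendrocytes and leaves most other cells of the brain alive. Oligodendrocytes wrap axons in myelin, a membrane rich in cholesterol, galactolipids and a small set of abundant proteins. Myelin debris is taken up by microglia, the resident macrophages of the brain, while astrocytes become reactive and oligodendrocyte precursors divide and begin to replace the lost cells. The comparison asked which of these events, and which others, could be read in RNA of the whole hemisphere.

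The authors deposited an estimated count per gene and library, which came to between 5422264 and 7486387 per CTL library and between 6743067 and 8197289 per CPZ library. Of 55401 genes in the table, 14985 passed the filter and were tested. Levels are given as CPM, counts scaled to a common library total after TMM normalization, and changes as log2 fold changes of CPZ over CTL with their standard error (SE). A gene was called when its adjusted p (padj) in edgeR's quasi-likelihood test was below 0.05. Libraries of the same group differed by more than counting error, with a chi-square per gene of 5.12 to 17.2 between CTL libraries. Among the CPZ libraries it was 4.46 to 5.74 for pairs of replicates 2, 3 and 4 and 11 to 13.8 for pairs with replicate 1, and results that turn on replicate 1 are given without it as well. Genes of single brain regions varied widely within both groups. The mean log2-CPM of 9 striatal genes ran from 5.22 to 7.62 in CTL and from 5.78 to 6.79 in CPZ, and that of 8 choroid plexus genes from 3.38 to 5.79 and from 3.87 to 5.52.

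In all, 1522 genes were called, 10.2% of those tested. Of these, 1148 (7.66%) were higher and 374 (2.50%) lower in CPZ. The median change over all genes was -0.02 on the log2 scale. The rises were larger than the falls. Among the genes called higher, 569 lay above a log2 fold change of 1, 257 above 2 and 81 above 3, whereas 65 of the genes called lower lay below -1 and 13 below -2. The risen genes were of low abundance in the hemisphere, with a median of 14.0 CPM against 23.5 CPM over all genes, and the fallen genes of higher abundance, with a median of 64.2 CPM. CPZ and CTL libraries had no overlap in level for 1965 genes (13.1%), among them 1031 called higher and 327 called lower. Without CPZ replicate 1 the genes called lower numbered 192 and those called higher 886.

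**Figure D1:**
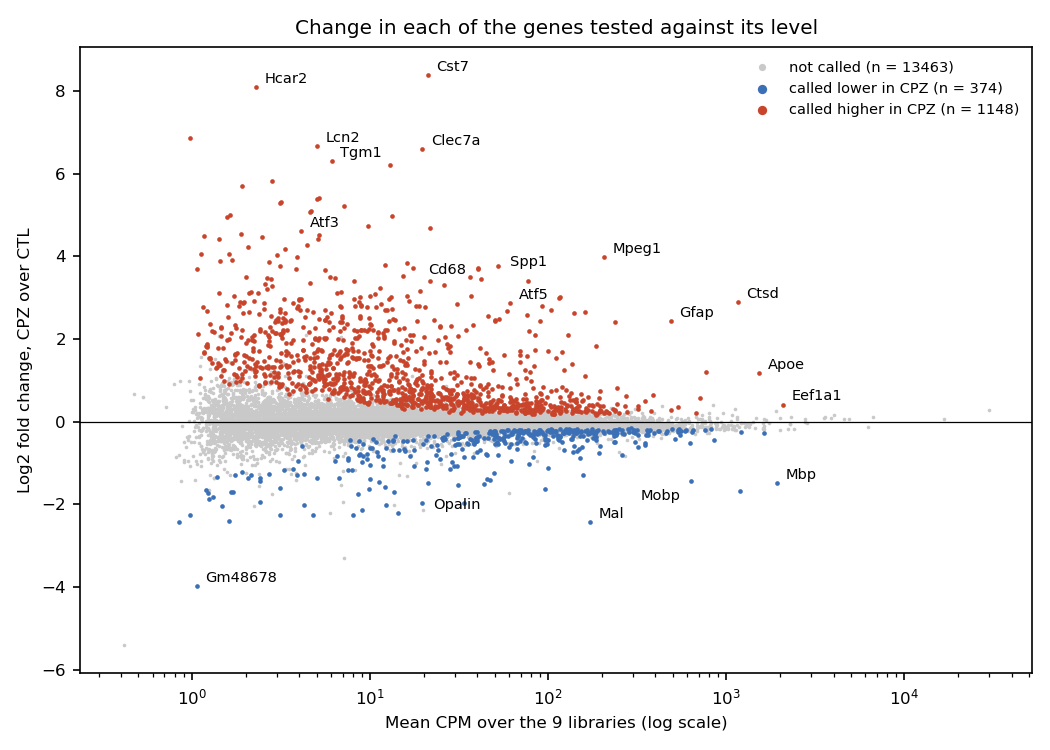
Log2 fold change of CPZ over CTL (y axis) against the mean CPM over the 9 libraries (x axis, log scale) for the 14985 genes tested, with genes called higher in red, called lower in blue and not called in grey. Most of the largest rises lie at low levels, whereas several of the large falls (Mal, Mobp, Mbp) lie at high levels.

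Gene lists were drawn up by cell type and pathway, and a list is described by how many of its tested members were called and by its median log2 fold change, to be read beside the 7.66% called higher, the 2.50% called lower and the median of -0.02 over all genes. In whole tissue, fewer cells of a type and less RNA per cell cannot be told apart, and nor can more cells and more RNA.

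**Figure D2:**
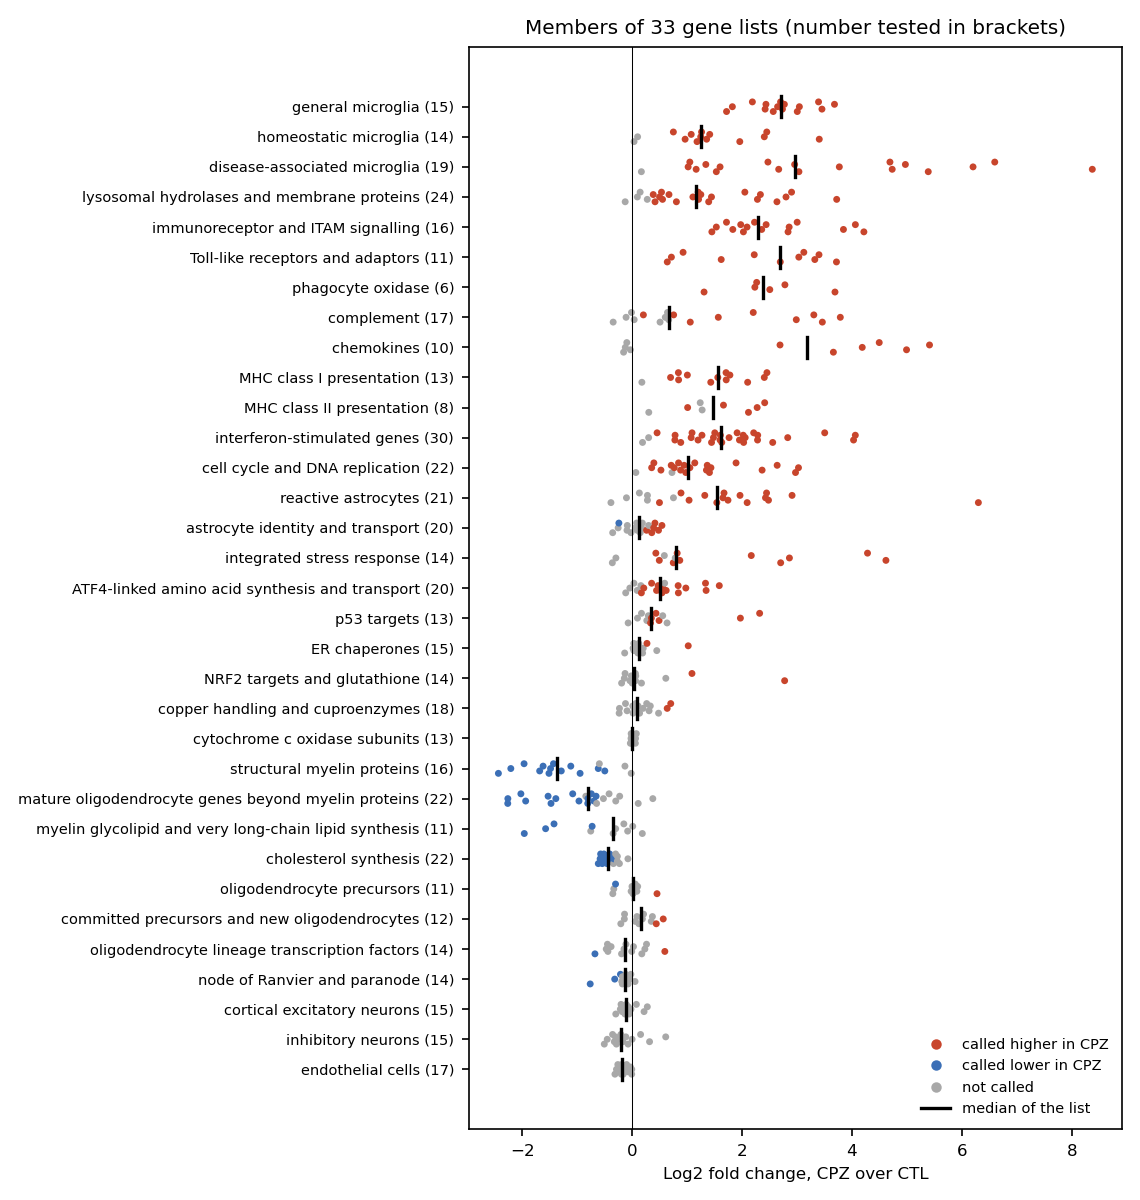
Log2 fold change of CPZ over CTL (x axis) of every tested member of 33 gene lists (y axis, number tested in brackets), with members called higher in red, called lower in blue and not called in grey, and the median of each list as a black bar. The lists of microglia and interferon-stimulated genes lie to the right of 0, and the lists of myelin, mature oligodendrocyte and cholesterol genes to the left. Those of neurons, endothelium and cytochrome c oxidase lie close to 0, with all endothelial genes a little below it.

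Microglial genes rose together. All 15 genes of a general microglial list were called higher, with a median log2 fold change of 2.70, and no library of one group overlapped the other. Tyrobp, the signalling adaptor of Trem2 and related receptors, lay at 7.48, 10.5, 7.07, 7.19 and 6.05 CPM in CTL replicates 1 to 5 and at 131, 90.7, 51.2 and 65.7 CPM in CPZ replicates 1 to 4 (log2 fold change 3.46, SE 0.28, padj = 4.78e-06). Csf1r, the receptor on which microglia depend for survival, rose from 87.1 ± 8.80 CPM (SD, n = 5) to 309 ± 77.1 CPM (SD, n = 4), and Cx3cr1, the receptor of the neuronal chemokine Cx3cl1, from 49.2 ± 4.27 to 162 ± 45.5 CPM. The fitted log2 fold changes of the list ran from 1.72 (Cx3cr1) to 3.68 (Ly86), and the differences between genes were not tested.

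Among the 10 largest rises of genes with at least 2 CPM in CTL, all were genes of microglia or other macrophages. Mpeg1, which encodes the pore-forming protein perforin-2 of macrophages, was first, at 24.2, 30.6, 24.3, 27.4 and 29.0 CPM in CTL and 600, 525, 258 and 340 CPM in CPZ, a rise of 15.9-fold (log2 fold change 3.99, SE 0.25, padj = 1.24e-06). The inhibitory Fc receptor Fcgr2b (14.4-fold), the secreted phosphoprotein Spp1 (13.7-fold), the endosomal glycoprotein Cd68 (13.2-fold) and Cd180 (13.2-fold), a relative of the Toll-like receptors, followed. Ly86, the partner of Cd180 on the cell surface, rose 12.8-fold, Cd84 11.6-fold, lysozyme Lyz2 11.3-fold, Tyrobp 11-fold and Fcrls 10.6-fold. Spp1 varied widely between the CPZ libraries, with 214 CPM in replicate 1 and 50.2 to 90.2 CPM in the others.

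Genes that mark microglia in the undisturbed brain rose as well. Of 14 such homeostatic genes, 12 were called higher and none lower, with a median log2 fold change of 1.26. Fcrls rose by 3.41 on the log2 scale. P2ry12, the purine receptor by which microglial processes find injury, lay at 24.6, 25.8, 17.8, 20.8 and 24.9 CPM in CTL and at 52.4, 54.9, 31.6 and 39.0 CPM in CPZ (log2 fold change 0.97, SE 0.15, padj = 0.000394). Tmem119 rose by 1.18 and the transcription factor Sall1 by 0.75. Sparc (0.10) and Mef2c (0.04), which other brain cells also express, were not called.

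Disease-associated microglia are a state that forms around damaged myelin and amyloid, and its genes serve phagocytosis, lipid metabolism and lysosomal digestion. Of 19 genes tested, 18 were called higher, with a median log2 fold change of 2.96, and only Fabp5 was not called (0.17, padj = 0.28). Cst7, which encodes the lysosomal protease inhibitor cystatin F, had the largest fitted change of all called genes, although genes with 0 counts in CTL have no more than a lower bound. It was close to absent from CTL, at 0.136, 0, 0.307, 0.153 and 0 CPM, and reached 77.2, 57.6, 21.1 and 32.7 CPM in CPZ (log2 fold change 8.38, SE 0.71, padj = 8.75e-06). Clec7a, a pattern recognition receptor for fungal glucans, went from 0.432 ± 0.126 to 43.6 ± 12.5 CPM, and Itgax, an integrin subunit, from 0.355 ± 0.272 to 28.6 ± 8.98 CPM. Trem2, the lipid-sensing receptor that signals through Tyrobp, lay at 8.14 to 10.1 CPM in CTL and at 96.1, 90.7, 43.6 and 57.7 CPM in CPZ. Apoe, the main lipoprotein of the brain and among the most abundant of all risen genes, went from 985 ± 125.7 to 2212 ± 459 CPM (2.25-fold, padj = 1.97e-05). In these genes, Itgax apart, CPZ replicates 1 and 2 were the highest and replicate 3 the lowest.

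Lysosomes digest what phagocytes take up. Of 24 genes for lysosomal hydrolases and membrane proteins, 20 were called higher and none lower, with a median log2 fold change of 1.16. Ctsd, an aspartic protease, rose from 259, 302, 334, 318 and 281 CPM in CTL to 3199, 2778, 1333 and 1630 CPM in CPZ (7.48-fold, SE of the log2 fold change 0.25, padj = 1.11e-05). Ctsb, a cysteine protease, rose 2.30-fold from 487 ± 24.9 to 1121 ± 259 CPM, and Cst3, which encodes an inhibitor of such proteases, 1.49-fold from 583 ± 49.2 to 868 ± 98.1 CPM. Ctsz (2.80) and progranulin, Grn (2.64), were next on the log2 scale. Gla (0.28), Scarb2 (0.15), Psap (0.10) and Neu1 (-0.12) were not called, and these include genes with broad expression in neurons and glia, such as Psap at 1430 CPM in CTL.

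Many lysosomal genes hold a palindromic E-box, TCACGTGA, that the factor TFEB binds, and many myeloid genes an ETS element, GAGGAAGT on either strand, of the kind that PU.1 binds. In windows from 250 bases before to 50 after the start site (RefSeq, GRCm38.p6), the E-box was in 2 of the 20 lysosomal genes with a window and in 203 of 11293 tested genes (1.80%), and it was in 1.66% of the genes called higher. The ETS element was in 2 of 11 general microglial genes (18.2%), in 2.72% of all tested genes and in 6.87% of the 903 genes called higher with a window. A match is a stretch of letters and not a shown binding site. The stretches before the start sites of Ctsd and Cd53, the genes of largest change among the list members with a match, are shown 5′ to 3′ with the match in capitals, and that of Cd53 runs 14 bases past the start site because its match lies there.
Ctsd (chr7:142387828-142387947, minus strand): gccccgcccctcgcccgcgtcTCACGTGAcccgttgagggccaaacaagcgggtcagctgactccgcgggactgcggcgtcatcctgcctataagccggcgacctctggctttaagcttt
Cd53 (chr3:106790136-106790269, minus strand): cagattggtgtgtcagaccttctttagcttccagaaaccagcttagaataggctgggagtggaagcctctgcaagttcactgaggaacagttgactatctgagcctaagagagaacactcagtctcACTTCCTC
Cd53, a tetraspanin of leukocytes, lay at 5.17, 3.45, 3.23, 2.60 and 4.40 CPM in CTL and at 36.3, 26.9, 15.4 and 22.6 CPM in CPZ.

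Receptors of innate immunity and their signalling chains rose as sets. All 16 genes of Fc receptor and ITAM signalling were called higher (median 2.30), all 11 tested Toll-like receptor genes and adaptors (median 2.70) and all 6 genes of the phagocyte oxidase (median 2.39). The Toll-like receptor list holds 16 genes, and 5 did not pass the filter. Some that did were near 0 in CTL, such as Tlr1 with 2 to 4 counts per CTL library and 22 to 48 per CPZ library. With no filter on counts 13 of the 16 were called higher, with a median of 1.72. Fgr, a Src-family kinase of myeloid cells, rose by 4.22 on the log2 scale and Syk, the kinase that ITAM receptors recruit, by 1.45. Tlr2 lay at 0.680 to 2.40 CPM in CTL and at 22.8, 18.6, 12.3 and 11.2 CPM in CPZ, and Cybb, the catalytic subunit of the oxidase, at 0.136 to 1.28 CPM and at 9.51, 6.32, 9.71 and 5.94 CPM. The adaptors Myd88 (0.72) and Irak4 (0.93), which are used in many cell types, rose too, as did Tlr3 (0.64), the receptor of double-stranded RNA. Of 16 myeloid transcription factors 9 were called higher, led by Runx1 (2.64) and Ikzf1 (2.17), whereas Mef2a (0.18) and Bhlhe40 (0.15) were not called.

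Of 17 complement genes, 9 were called higher, and 7 or 8 in each fit that left out 1 library. C1qc, a subunit of the initiator of the classical pathway, lay at 24.7, 32.4, 27.8, 30.1 and 25.5 CPM in CTL and at 309, 271, 129 and 185 CPM in CPZ. C4b, which acts next in that pathway, rose with little spread among the CPZ libraries, from 28.8, 28.8, 31.5, 34.4 and 26.4 CPM to 143, 136, 131 and 144 CPM (log2 fold change 2.21, SE 0.09, padj = 3.58e-10). The close paralog C4a can share reads with C4b, so that the split between both is uncertain. The receptors C3ar1 (3.79) and C5ar1 (3.46) rose, and so did C3 itself, from 0.680, 2.55, 5.69, 3.67 and 0.734 CPM to 11.1, 6.81, 5.69 and 8.39 CPM (log2 fold change 1.57, SE 0.45, padj = 0.0413), with CPZ replicate 3 next to the highest CTL library. The membrane inhibitors Cd46 (-0.01), Cd55 (0.04) and Cd59a (-0.11) were not called.

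Of 16 chemokines listed, 10 passed the filter, and these fell into risen and unmoved genes. The split depends on the filter. With 10 counts required in every library 4 were tested and 0 called, and with no filter on counts 9 of the 16 were called higher. Ccl3, Ccl12, Ccl4, Cxcl10, Ccl9 and Cxcl16 were called higher, with log2 fold changes from 2.69 to 5.41, and Cxcl14, Ccl25, Cxcl12 and Cx3cl1, which neurons, stroma or epithelium make, were not, with changes from -0.15 to -0.03. Ccl3, which attracts leukocytes, lay at 0 to 0.600 CPM in CTL and at 15.6, 16.6, 5.0 and 8.01 CPM in CPZ. Ccl4 and Ccl12 had 3 counts each over all CTL libraries, and the ratios of summed counts were 27.0 (95% exact interval 8.89 to 133.8) and 38.1 (12.7 to 187.9), where the intervals cover counting error only. Among cytokine and inflammasome genes, Il1a (2.80), Pycard (2.28), Tgfb1 (2.25) and Nlrp3 (1.84) were higher and Il33 (-0.80) lower, out of 9 tested. Il33 is made by oligodendrocytes and astrocytes in the mouse brain. Tnf, Il1b, Il6 and Il10 did not reach the filter. With no filter on counts 16 of the 17 genes listed were tested, and 7 were called higher and 1 lower. With 10 counts required in every library 6 were tested, and 2 were called higher and 1 lower.

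Genes of peptide presentation on MHC class I rose in 12 of 13 cases, with a median log2 fold change of 1.56. B2m, the light chain of class I molecules, lay at 47.1 to 56.7 CPM in CTL and at 279, 230, 169 and 222 CPM in CPZ (4.30-fold, padj = 2.39e-07). Nlrc5, the activator of class I transcription, rose by 2.46 and the immunoproteasome subunit Psmb8 by 2.41. Of 8 class II genes 5 were called higher. These were the nonclassical chains H2-DMb1 (2.41), H2-Ob (2.12) and H2-DMa (1.01), the costimulatory ligand Cd86 (2.28) and the invariant chain Cd74 (1.66). The classical chains H2-Aa (1.24), H2-Ab1 (1.28) and H2-Eb1 (0.31) were not called. Cd74 (padj = 0.0872) and H2-Ob (0.0656) were not called without CPZ replicate 1, which left 3 class II genes, and each was also lost without 2 or 3 other single libraries (padj from 0.0517 to 0.071).

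Interferon-stimulated genes encode sensors and inhibitors of viruses and are switched on by interferons. Of 30 tested, 28 were called higher and none lower, with a median log2 fold change of 1.62. Zbp1, a sensor of left-handed nucleic acids, rose by 4.06 and Oas1a, an enzyme activated by double-stranded RNA, by 4.03, from 0.680, 0, 0.461, 0.153 and 0.550 CPM to 9.07, 7.17, 3.88 and 5.17 CPM. Mx1, a GTPase that blocks influenza viruses, varied widely, at 9.36 CPM in CPZ replicate 1 and 1.58 to 3.36 CPM in the other CPZ libraries. Isg15, a ubiquitin-like modifier, rose 4.17-fold from 0.890 ± 0.123 to 3.79 ± 0.885 CPM. The factor Irf9, which relays the interferon signal, rose by 0.78, whereas its partner Stat2 (0.30, padj = 0.072) and Cmpk2 (0.19) were not called. The order of the CPZ libraries was not that of the microglial genes, since the mean log2-CPM of the list was 3.89, 3.31, 3.38 and 3.59 in replicates 1 to 4 while that of the general microglial list was 6.76, 6.57, 5.65 and 6.04.

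The core of the interferon-stimulated response element, GAAA and again GAAA with 2 bases of any kind between them, on either strand, was in the promoter window of 15 of the 22 list members with a window (68.2%). It was in 321 of 11293 tested genes (2.84%), in 65 of 903 genes called higher (7.20%) and in 3 of 284 called lower (1.06%). Oas1a holds a pair of overlapping matches and Trim30a, an E3 ligase that rose 7.13-fold, a single match on the other strand, 36 bases before its start site. Both stretches are shown because they belong to the members of largest change that hold the element.
Oas1a (chr5:120907526-120907645, minus strand): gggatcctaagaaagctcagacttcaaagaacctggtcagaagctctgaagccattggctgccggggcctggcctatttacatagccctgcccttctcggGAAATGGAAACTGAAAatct
Trim30a (chr7:104465194-104465313, minus strand): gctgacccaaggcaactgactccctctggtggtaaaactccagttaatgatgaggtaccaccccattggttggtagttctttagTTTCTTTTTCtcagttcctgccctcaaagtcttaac

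Genes of the cell cycle and DNA replication rose, with 20 of 22 tested called higher and a median log2 fold change of 1.02. Mki67, a chromosome surfactant found in dividing cells alone, lay at 1.90, 2.10, 3.69, 0.917 and 1.28 CPM in CTL and at 19.7, 20.5, 7.63 and 15.2 CPM in CPZ (log2 fold change 2.98, SE 0.36, padj = 5.67e-05). The kinase Cdk1 rose by 3.03 and topoisomerase Top2a by 2.64, and Mcm4 (0.07) and Tyms (0.73, padj = 0.12) were not called. These are genes of few counts, and leaving out CPZ replicate 1, 2 or 4 moved the number called from 20 to 13, 12 or 13. Leaving out CTL replicate 1, 2, 3, 4 or 5 moved it to 14, 14, 16, 13 or 16. Without CPZ replicate 3 it was 21 of 24 tested. The list does not tell which cells divided.

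Markers of other leukocytes were near their limit of detection. None of 9 genes of blood monocytes and granulocytes passed the filter. In CPZ libraries their counts ran from 0 to 4, with Ccr2 at 0 to 2 and Ly6g at 0 in every library, and the only counts above 5 were in CTL, for S100a8 (up to 25) and S100a9 (up to 37). Of 12 lymphocyte genes only Cd4 (0.13) and Trbc2 (0.11) were tested, and neither was called. With no filter on counts 1 of the 12 lymphocyte genes was called higher, and 0 of the 9 monocyte and granulocyte genes. Among 8 genes of macrophages at the borders of the brain, Siglec1 rose from 0.465 ± 0.119 to 11.1 ± 5.11 CPM and Stab1 from 14.2 ± 1.52 to 45.8 ± 13.6 CPM, whereas Mrc1 (0.71, padj = 0.26) and F13a1 (0.08) were not called and Cd163, Lyve1, Pf4 and Cbr2 stayed at 0 to 9 counts in every library. Red blood cell genes were not called in either direction (0 of 5).

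There were 8 genes with at most 3 counts over all CTL libraries and at least 10 counts in every CPZ library. Hcar2, the receptor for nicotinic acid and hydroxybutyrate, had no count in CTL and lay at 6.63, 6.93, 2.08 and 5.04 CPM in CPZ, at least 56.5-fold higher against a floor of 3 counts over the CTL group. Olfr111, an olfactory receptor gene, was likewise at 0 in CTL and at 3.60, 1.58, 1.80 and 1.81 CPM in CPZ, at least 23.4-fold higher. Lcn2, a siderophore-binding protein of activated astrocytes and neutrophils, split the CPZ libraries, with 19.4 and 18.2 CPM in replicates 1 and 2 and 3.33 and 3.87 CPM in replicates 3 and 4. The others were Cd22, an inhibitory lectin that binds sialic acid (6.25 ± 1.20 CPM in CPZ), Pdcd1, the checkpoint receptor PD-1 (4.20 ± 2.06 CPM), the proton-sensing receptor Gpr65 (3.42 ± 1.69 CPM), Ccl12 and Ccl4.

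Most myelin genes fell. Of 16 genes for structural proteins of myelin, 13 were called lower and none higher, with a median log2 fold change of -1.36. Mobp, a small basic protein of compact myelin, lay at 1019, 942, 1081, 520 and 833 CPM in CTL and at 323, 259, 291 and 433 CPM in CPZ, 2.69-fold lower (log2 fold change -1.43, SE 0.24, padj = 0.00194). Mbp, which holds the cytoplasmic faces of the membrane together, was 2.79-fold lower, from 2687 ± 579 to 962 ± 261 CPM. The deepest fall of the list was that of Mal, a proteolipid of glycolipid-rich membrane, at 304, 296, 355, 170 and 225 CPM against 48.1, 49.0, 40.8 and 62.4 CPM (5.39-fold lower, padj = 4.64e-05). Opalin, a glycoprotein of central myelin, was 3.90-fold lower. At the other end, Cnp (-0.61) and Pllp (-0.50) fell by less than 1 on the log2 scale, and Gjb1 (-0.59, padj = 0.24), Omg (-0.13) and Gjc3 (-0.01) were not called.

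One library in each group stood toward the other. CTL replicate 4 had the lowest Mobp, Mbp, Mal and Opalin of its group, and CPZ replicate 4 the highest of its own, and the mean log2-CPM of the list was 7.31, 7.20, 7.50, 6.66 and 7.07 in CTL and 5.80, 5.76, 5.79 and 6.38 in CPZ. For Mog, a surface protein of the outermost myelin layer, both libraries met, at 34.4 CPM in CTL replicate 4 and 35.1 CPM in CPZ replicate 4, and the gene was called all the same (log2 fold change -1.51, SE 0.29, padj = 0.00472). The number of genes of the list called lower stayed at 13 without CPZ replicate 4 or CTL replicate 4. It was 11 without CTL replicate 5 and 10 without any other single library.

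**Figure D3:**
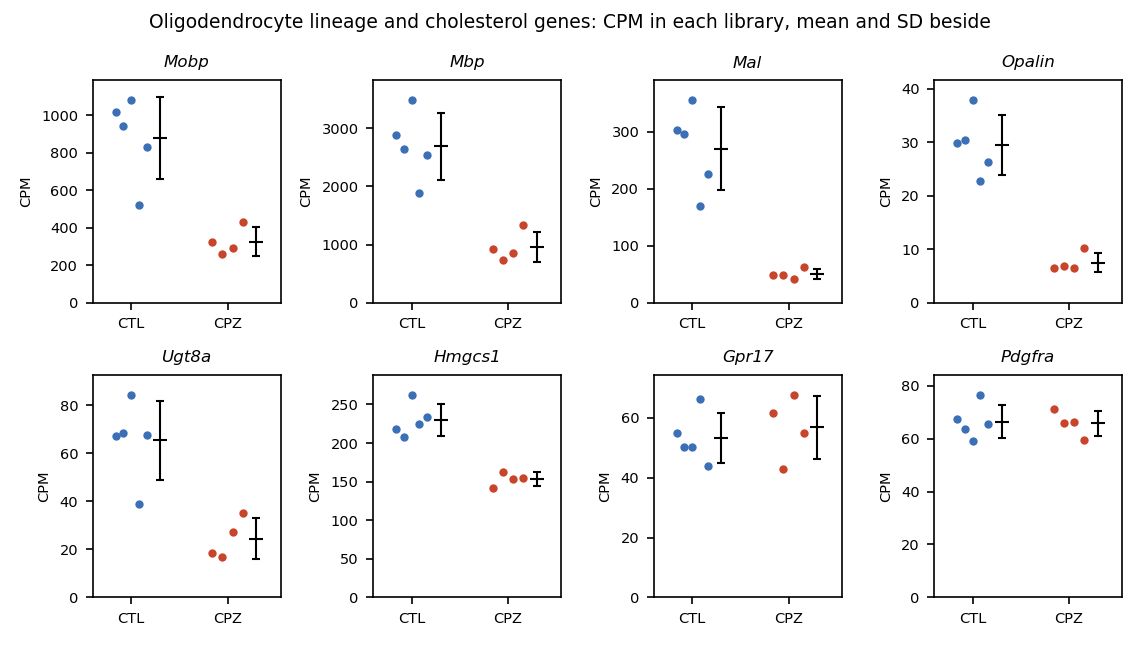
CPM (y axis, from 0) of 8 genes in each CTL library (blue, replicates 1 to 5 from left to right) and each CPZ library (red, replicates 1 to 4), with the mean and SD of each group beside the points. Mobp, Mbp, Mal, Opalin, Ugt8a and Hmgcs1 do not overlap between the groups, whereas Gpr17 and Pdgfra do.

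Mature oligodendrocytes have further genes that do not build myelin, and 14 of 22 of these were called lower and none higher (median -0.80). Ppp1r14a, an inhibitor of a phosphatase, was 4.79-fold lower, from 12.3 ± 2.75 to 2.57 ± 0.725 CPM, and S1pr5, a sphingosine phosphate receptor, 4.06-fold lower, from 18.4 ± 6.33 to 4.51 ± 2.13 CPM. Ninj2 (-2.26) and Klk6 (-1.94), a secreted protease, fell from low levels, and Ninj2 was not called without CPZ replicate 2 (padj = 0.0532). Not all genes of these cells followed. Trf, the iron carrier transferrin, lay at 409, 382, 512, 243 and 360 CPM in CTL and at 454, 475, 456 and 599 CPM in CPZ (log2 fold change 0.38, SE 0.23, padj = 0.383), and Apod (-0.30) and Cryab (-0.42) were not called. Enpp2 and Ptgds, which the choroid plexus and the meninges also make, varied widely, Enpp2 from 435 to 1538 CPM within CTL, and were not called.

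Lipids of myelin were covered by 2 lists. Among 11 genes for galactolipids and very long-chain lipids 4 were called lower (median -0.34). These were Fa2h, which hydroxylates the fatty acids of myelin lipids (59.7, 51.0, 68.5, 32.1 and 39.8 CPM in CTL and 10.1, 7.17, 13 and 21.4 CPM in CPZ, 3.89-fold lower, padj = 0.00201), Aspa, which frees acetate from N-acetylaspartate (2.97-fold lower), Ugt8a, the galactosyltransferase that makes galactosylceramide (2.67-fold lower), and Gal3st1, which sulphates it (log2 fold change -0.73). Elongation and ceramide genes with roles in all cells, Elovl1 (-0.15), Degs1 (-0.08) and Cers2 (-0.34), were not called.

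Many genes of cholesterol synthesis fell by a small amount. All 22 genes had a log2 fold change below 0, from -0.61 to -0.07, and 16 were called lower (median -0.44). Hmgcs1, which makes the precursor of mevalonate, lay at 219, 208, 262, 225 and 233 CPM in CTL and at 142, 163, 154 and 155 CPM in CPZ (log2 fold change -0.58, SE 0.07, padj = 2.32e-05). Msmo1 (-0.61) and Fdps (-0.55), which act later in the pathway, fell to a like extent, and Srebf2, the factor that drives these genes, fell by 0.33 on the log2 scale. The mean log2-CPM of the list was 5.15, 5.14, 5.17 and 5.09 in the CPZ libraries and 5.45 to 5.71 in CTL, so that CPZ replicate 4, the highest for myelin, was the lowest here.

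Genes of sterol uptake and efflux moved otherwise. Of 18 tested, 8 were called higher and 1 lower. Abca1, which exports cholesterol to apolipoproteins, was 3.21-fold higher, at 54.7 to 72.2 CPM in CTL and 243, 208, 158 and 162 CPM in CPZ, and Abcg1 (0.26), Soat1 (0.41), which esterifies cholesterol, Npc2 (1.07) and the lipid droplet protein Plin2 (1.59) were higher too. Msr1, a scavenger receptor of macrophages, rose by 4.42 from 0.124 CPM. Nr1h2 (0.13) and Nr1h3 (0.14), the sterol-sensing factors that control Abca1, were not called. The sterol regulatory element core, TCACNCCAC on either strand, was in the window of 1 of 16 synthesis genes (6.25%) and of 1.03% of all tested genes.

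Precursors and newly formed oligodendrocytes showed little net change. Of 11 precursor genes 1 was called higher, Cspg4 (0.45, padj = 0.0396), and 1 lower, Dscam (-0.30), with a median of 0.02, and Cspg4 was not called without CPZ replicate 1 (padj = 0.148), without CPZ replicate 2 (0.145) or without CTL replicates 1, 2, 3 or 5 (0.0592 to 0.0859). Pdgfra, the growth factor receptor that defines precursors, lay at 59.2 to 76.5 CPM in CTL and at 71.2, 66.0, 66.2 and 59.5 CPM in CPZ (log2 fold change -0.02, SE 0.08). Of 12 genes of committed precursors and new oligodendrocytes, Itpr2 (0.57, padj = 0.000305) and Tns3 (0.44, padj = 0.00296) were called higher and none lower. Gpr17, the receptor that marks the step before myelination, was within its spread (53.1 ± 8.33 against 56.8 ± 10.5 CPM), and so was Bcas1 (193 ± 44.9 against 223 ± 40.9 CPM).

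The transcription factors of the lineage split. Olig2, present from precursor to mature cell, rose from 31.5, 26.6, 39.2, 26.9 and 28.1 CPM to 46.8, 52.6, 44.1 and 40.8 CPM (log2 fold change 0.60, SE 0.13, padj = 0.00714), and Nkx6-2, a factor of myelinating cells, fell (-0.67, padj = 0.0143, and 0.0547 without CPZ replicate 3). Leaving out CPZ replicate 2 or CTL replicate 3, 4 or 5 brought the number lower to 2. The other 12 of 14, Sox10 (-0.11) and Myrf (-0.15) among them, were not called. Of 5 genes that the study used to describe a subcluster of oligodendroglia in the same experiment, Arap2 (0.77) and Dock1 (0.52) were higher and Dock10 (0.28), Pex5l (-0.15) and Tenm4 (-0.19) were not called. The study chose these 5 genes with this model in view, so that their direction is not independent evidence.

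The integrated stress response is a brake on protein synthesis, set off by phosphorylation of eIF2α, under which the factor ATF4 is made and switches on genes of amino acid supply and, if the stress lasts, of cell death. Of 14 genes of this response 10 were called higher and none lower, with a median log2 fold change of 0.80. Atf3, a factor induced by ATF4, lay at 0.136, 0.150, 0.615, 0.459 and 0.367 CPM in CTL and at 12.8, 9.72, 7.49 and 5.17 CPM in CPZ (log2 fold change 4.62, SE 0.37, padj = 8.70e-07). Trib3, a pseudokinase that dampens ATF4, rose by 4.29, at 12.8, 14.6, 6.66 and 3.23 CPM in CPZ against 0 to 1.08 CPM in CTL. Atf5, another such factor, rose from 15.6, 15.3, 16.3, 18.5 and 14.8 CPM to 138, 123, 119 and 90.9 CPM (7.28-fold, padj = 3.58e-10), and Nupr1, a small chromatin protein, rose 6.52-fold. Ddit3, which encodes the death-linked factor CHOP, rose 1.77-fold and Atf4 itself, whose control is mainly on translation, 1.35-fold. Chac1 (0.79, padj = 0.063), Ddit4 (-0.36) and Vgf (-0.29) were not called, and 1 gene was lower without CPZ replicate 2. CPZ replicate 4 was the lowest for each of Atf3, Trib3, Atf5, Nupr1, Ddit3 and Atf4.

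**Figure D4:**
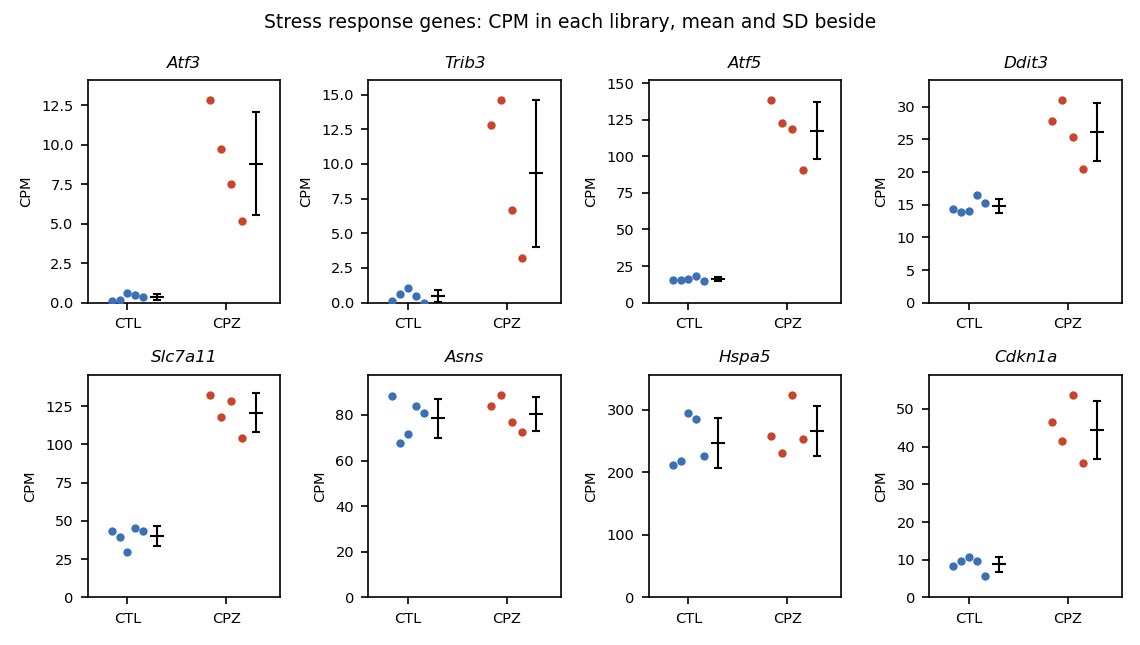
CPM (y axis, from 0) of 8 stress response genes in each CTL library (blue, replicates 1 to 5 from left to right) and each CPZ library (red, replicates 1 to 4), with the mean and SD of each group beside the points. Atf3, Trib3, Atf5, Ddit3, Slc7a11 and Cdkn1a do not overlap between the groups, whereas Asns and Hspa5 do.

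ATF4 acts at composite elements with C/EBP proteins, and the letters TGATGNAAN, on either strand, were in the window of 4 of the 12 stress response genes with one (33.3%) and of 241 of 11293 tested genes (2.13%). They were in 3.88% of the genes called higher and 1.06% of those called lower. The Atf3 match begins 111 bases before the start site and the Trib3 match 13 bases after it, and both stretches are shown as those of the members of largest change with a match.
Atf3 (chr1:191183334-191183453, minus strand): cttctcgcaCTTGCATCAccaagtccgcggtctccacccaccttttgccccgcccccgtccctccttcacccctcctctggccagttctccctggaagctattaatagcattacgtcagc
Trib3 (chr2:152344039-152344180, minus strand): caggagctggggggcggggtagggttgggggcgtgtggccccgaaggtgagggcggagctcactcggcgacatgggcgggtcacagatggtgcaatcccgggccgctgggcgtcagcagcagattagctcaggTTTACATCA

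Amino acid genes that ATF4 controls rose in 14 of 20 cases, with none lower and a median of 0.51. Slc7a11, the cystine carrier, rose from 43.1, 39.1, 29.5, 45.6 and 43.1 CPM to 132, 118, 128 and 104 CPM (3.01-fold, padj = 9.92e-06). The mitochondrial folate enzymes Aldh1l2 (1.35) and Mthfd2 (1.34) and the carrier of large neutral amino acids Slc7a5 (0.98) followed, and the serine synthesis enzymes Phgdh (0.56), Psat1 (0.47) and Psph (0.45) rose as well. Asns, asparagine synthetase, is a standard readout of ATF4, yet it lay at 67.5 to 88.5 CPM in CTL and at 72.3 to 88.7 CPM in CPZ (log2 fold change 0.04, SE 0.08, padj = 0.868). Of the tRNA synthetases, Aars (0.21) and Nars (0.17) were called and Sars (0.16), Gars (0.09) and Wars (-0.04) were not.

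Of 13 p53 targets 6 were called higher, led by the cell cycle inhibitor Cdkn1a, which rose from 8.29, 9.60, 10.6, 9.79 and 5.68 CPM to 46.5, 41.5, 53.7 and 35.8 CPM (5.0-fold, padj = 2.38e-07), and by Eda2r (1.97), while Mdm2 (0.17), Bax (0.27) and Zmat3 (-0.07) were not called. Of 15 chaperones of the endoplasmic reticulum, Sdf2l1 (1.02) and Pdia3 (0.27) were called. Hspa5, the master chaperone BiP, lay at 247 ± 39.7 and 266 ± 40.1 CPM, and Xbp1 (0.02) and Dnajb9 (0.03) were not called. Pdia3 was not called without CPZ replicate 1 (padj = 0.0726), CPZ replicate 3 (0.0604), CTL replicate 1 (0.0581) or CTL replicate 2 (0.0564), and 4 chaperones were called without CTL replicate 3. Of 14 targets of the oxidative stress factor NRF2 and genes of glutathione, Hmox1, which degrades haem, rose by 2.78 and Nfe2l2, which encodes NRF2, by 1.09, whereas Nqo1 (0.06), Gclm (0.00), Srxn1 (0.02) and Txnrd1 (-0.01) were not called.

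Copper is the metal that cuprizone binds. Of 18 genes for copper handling and copper enzymes, Cp, the ferroxidase ceruloplasmin (0.70, padj = 0.00179), and the metallothionein Mt2 (0.64, padj = 0.0150) were called higher and none lower, with a median of 0.10. Mt2 lay at 48.9, 52.4, 47.2, 41.4 and 30.1 CPM in CTL and at 78.5, 67.3, 66.5 and 63.1 CPM in CPZ, and was not called without CPZ replicate 1 (padj = 0.0572), whereas without CPZ replicate 4 the number called was 4. The copper importer Slc31a1 (0.33), the exporter Atp7a (0.48, padj = 0.063) and the dismutase Sod1 (-0.09) were not called. None of 13 subunits of cytochrome c oxidase, the copper enzyme of the respiratory chain, was called, and their log2 fold changes lay between -0.03 and 0.08. Among 11 iron genes Lcn2, the phagosomal carrier Slc11a1 (2.90) and the ferritin light chain Ftl1 (0.82, 182 ± 15.4 to 320 ± 55.8 CPM) rose, and the heavy chain Fth1 (-0.13) and the transferrin receptor Tfrc (0.01) were not called.

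Most reactive genes of astrocytes rose. Of 21 reactive genes 15 were called higher and none lower, with a median of 1.54. Gfap, the intermediate filament of astrocytes, lay at 161, 138, 195, 194 and 138 CPM in CTL and at 1007, 871, 792 and 891 CPM in CPZ (5.39-fold, SE of the log2 fold change 0.15, padj = 5.29e-07). Tgm1, a transglutaminase, went from at most 0.450 CPM to 15.7, 22.7, 6.94 and 8.91 CPM, and Osmr, the oncostatin M receptor, rose by 2.91, Cd44 by 2.48 and Serpina3n by 2.45. Hspb1 (-0.10), S100a10 (0.13) and Amigo2 (-0.38), which belong to the same list, were not called. Of 20 identity and transport genes 6 were called higher, by 0.26 to 0.54, among them the water channel Aqp4 (0.54), Sox9 (0.48) and Aldh1l1 (0.39). Glul, glutamine synthetase, was lower by a small amount (1302 ± 69.3 to 1103 ± 90.9 CPM, padj = 0.0293), a call lost without any 1 of CPZ replicates 2 and 3 and CTL replicates 1, 3 and 5 (padj from 0.0647 to 0.118). The glutamate carrier Slc1a2 lay at 2705 ± 163 and 2820 ± 237 CPM.

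**Figure D5:**
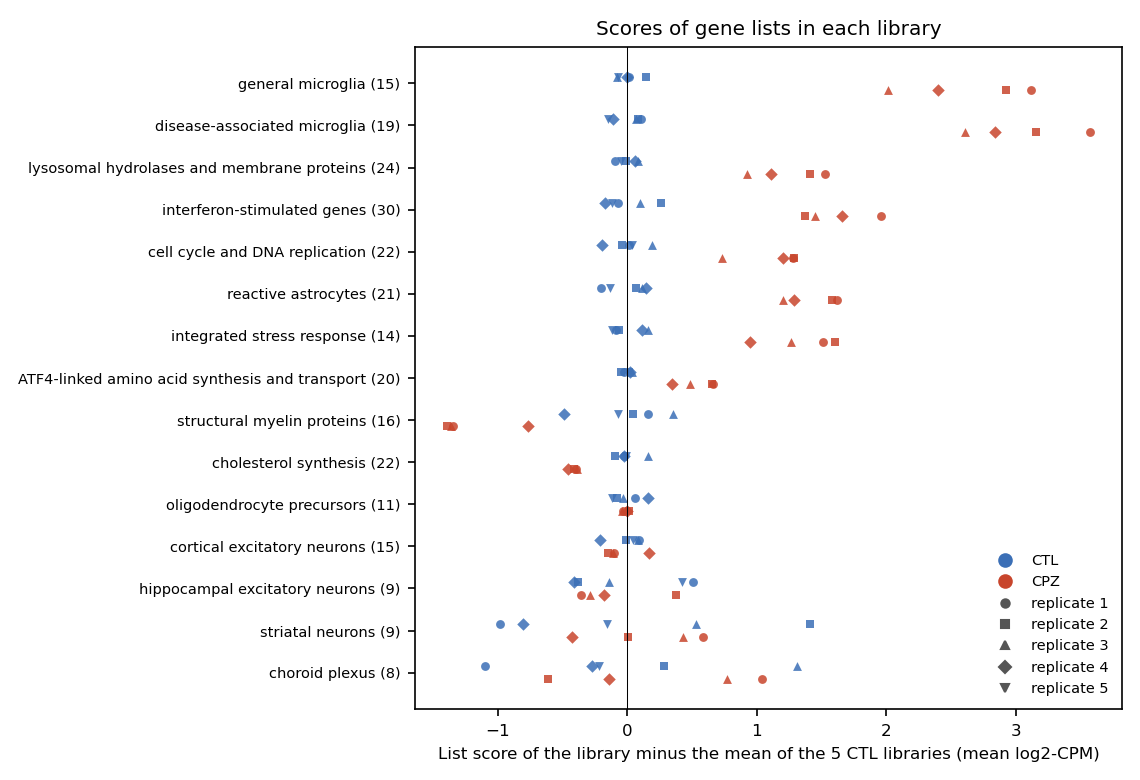
Score of 15 gene lists (y axis, number of genes in brackets) in each library, as its mean log2-CPM minus the mean of the 5 CTL libraries (x axis), with CTL in blue and CPZ in red and one marker shape per replicate number. CPZ replicate 3 is the lowest CPZ library for microglial and lysosomal genes, replicate 4 the lowest for the stress response and the highest for myelin, and the striatal and choroid plexus lists spread widely within both groups.

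The order of the CPZ mice was thus not the same from one process to another. For the general microglial list the scores were 6.76, 6.57, 5.65 and 6.04 in replicates 1 to 4, for the integrated stress response 4.65, 4.74, 4.41 and 4.09, for reactive astrocytes 4.6, 4.57, 4.19 and 4.28 and for p53 targets 4.55, 4.6, 4.65 and 4.50. With 4 mice these orders are a description only.

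Neuronal lists held no calls. None of 15 genes of cortical excitatory neurons was called, none of 9 hippocampal, none of 15 inhibitory, none of 9 striatal and none of 16 immediate early genes, with medians from -0.20 to -0.05. One hippocampal gene was lower without CPZ replicate 3 or without CTL replicate 1, and 1 endothelial gene without CTL replicate 2. In the main fit none of 17 endothelial, 8 choroid plexus or 5 tested cerebellar genes (of 8 listed) was called either. All 17 endothelial genes nevertheless had a log2 fold change below 0, from -0.31 to -0.004, with a median of -0.18. The mean log2-CPM of the endothelial list lay at 4.463 to 4.682 in CTL and at 4.297 to 4.456 in CPZ. Slc17a7, the vesicular glutamate carrier, lay at 920 CPM in CTL and 812 CPM in CPZ on average (log2 fold change -0.18, padj = 0.71) and Pvalb, a calcium buffer of fast interneurons, at 31.8 and 48.7 CPM (0.61, padj = 0.3). Among 11 genes of neurofilaments and axonal injury only Mapt, the microtubule protein tau, was called (586, 567, 602, 648 and 615 CPM in CTL and 472, 473, 486 and 511 CPM in CPZ, 1.24-fold lower, padj = 0.000533), while the neurofilament chains Nefl (-0.12), Nefm (-0.05) and Nefh (0.00) were not. Without CTL replicate 1 the list had 2 genes lower. All 11 of its log2 fold changes lay below 0, from -1.26 to -0.002, with a median of -0.18. Its mean log2-CPM lay at 7.43 to 7.69 in CTL and at 7.10 to 7.37 in CPZ. Of 9 mural cell genes Myh11 was called lower (-0.70, padj = 0.0442), a call that did not hold without any 1 of the 4 CPZ libraries or of CTL replicates 1, 2 and 4 (padj from 0.0581 to 0.125), whereas 2 mural genes were lower without CTL replicate 3.

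At the node of Ranvier, where myelin sheaths meet, 3 of 14 genes were called lower. Cntn2, an adhesion molecule that oligodendrocytes and axons share, was 1.69-fold lower (246, 245, 284, 190 and 220 CPM in CTL and 129, 127, 136 and 167 CPM in CPZ, padj = 0.00222). Epb41l3, a scaffold of the paranode (-0.31, padj = 0.00947), and Ank3, the ankyrin that anchors sodium channels (-0.21, padj = 0.0469), were lower by little, and without CPZ replicate 1 neither was called (padj = 0.0512 and 0.211), which left Cntn2 alone. Ank3 was also lost without CPZ replicates 2 and 3 and CTL replicates 2, 3 and 5 (padj from 0.0797 to 0.108). The channels Scn8a (-0.09), Kcna1 (-0.08) and Kcna2 (-0.03) and the axonal adhesion molecules Cntn1 (-0.07), Nfasc (-0.11) and Cntnap1 (-0.15) were not called.

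Signals between cells were covered by ligands and receptors that the study pairs, a choice made with this model in view and so no independent evidence of direction. Of 23 ligands 8 were called higher and none lower. They were Il1a, Grn, Tgfb1, Igf1 (6.82 ± 1.80 to 19.8 ± 6.36 CPM, 2.90-fold), Pros1, a bridge between dying cells and phagocytes (14.1 ± 1.44 to 38.3 ± 7.45 CPM), Csf1, the ligand of Csf1r (24.8 ± 2.89 to 51.7 ± 8.85 CPM), Fgf2 (0.74) and Gas6 (0.35, padj = 0.0494). Of 27 receptors 10 were called higher, and both Tgfb1 receptor chains were among them, Tgfbr1 (26.5 ± 3.60 to 70.8 ± 13.6 CPM) and Tgfbr2 (25.3 ± 3.40 to 72.9 ± 18.7 CPM). Axl (49.5 ± 3.34 to 125.9 ± 25.2 CPM) and Mertk (33 ± 3.53 to 58.9 ± 14.9 CPM), which bind Gas6 and Pros1, also rose, whereas Tyro3 (-0.27), their relative on neurons, was not called. Fgfr2, which mature oligodendrocytes carry, was the only receptor called lower (-0.54, padj = 0.0437), and it was not called in 7 of the 9 fits that left out 1 library. Cx3cl1 (-0.15), Psap (0.10), Ptn (0.03) and the platelet-derived growth factors Pdgfa (0.05) and Pdgfb (0.39, padj = 0.08) were not called.

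Among abundant genes outside these lists, the rule for named genes returned the elongation factor Eef1a1 (1822 ± 97.7 to 2428 ± 260 CPM, 1.33-fold higher), the microtubule protein Map1a (1804, 1748, 1688, 1815 and 1700 CPM in CTL and 1360, 1414, 1398 and 1639 CPM in CPZ, 1.21-fold lower) and Aplp1, a relative of the amyloid precursor (968 ± 50.8 to 713 ± 36.8 CPM, 1.36-fold lower). Among the 10 largest falls of genes with at least 2 CPM in CPZ, 3 were in no list. Abca8a, a lipid transporter, was 4.41-fold lower, at 9.38, 11.8, 15.4, 14.2 and 17.6 CPM in CTL and 3.89, 2.31, 3.33 and 2.84 CPM in CPZ, and the extracellular matrix protein Adamtsl4 (3.36-fold) and the integrin subunit Itgb4 (3.23-fold) followed. Itgb4 and Map1a overlap an annotated gene on the other strand, as do Fcgr2b, Cd180, S1pr5, Cd22, Gpr65, Ctsb and Mbp above, and the counting is not stated to use strand.

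Among RNAs not annotated as protein coding, the long intergenic RNA AU020206 rose 8.97-fold, from 3.81, 4.35, 4.00, 3.82 and 4.95 CPM to 50.9, 42.5, 23.9 and 32.7 CPM. Gm48678 fell from 60 counts in all CTL libraries to 3 in all CPZ libraries, a ratio of 18.5 (95% exact interval 6.04 to 92.4). Gm42756 was 4.79-fold and B230206H07Rik 4.74-fold lower. All 3 lie antisense to a gene, Gm48678 to Itsn2, Gm42756 to Fbxw15 and B230206H07Rik to Eps8l2. Whether the counting used strand is not stated, so reads of the opposite gene may be among their counts. Clec7a and Mx1 carry the annotation of a polymorphic pseudogene. Of 231 long intergenic RNAs 14 were called, 6.06%, and of 13826 protein coding genes 10.6%.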

How the data were processed

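Poly(A) RNA of 1 hemisphere per mouse was sequenced as 50-base read pairs. According to the submitters' processing notes the authors used STAR, RSEM and mm10, with versions not given in the sources used here. The deposited estimated counts were the authors' RSEM values per gene, used after rounding to whole numbers, and the deposited TPM values, scaled by gene length and library by the authors, served 3 alternatives only. Whether the counting used strand is not stated. Of 55401 identifiers, 54349 (98.1%) matched GENCODE M21 (GRCm38), and 92 spike-in identifiers held 0 counts.

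Genes were kept by filterByExpr over the groups, scaled by TMM and tested with edgeR 4.0.16 (quasi-likelihood, robust, R 4.3.3) in 1 fit of all 13 libraries, with no covariate and Benjamini-Hochberg adjustment over 14985 genes at 0.05. The RCV libraries thus share in the spread. Log2-CPM used a prior count of 2, and a list's score is the mean log2-CPM of its tested genes. The p-values set the difference between CPZ and CTL against the spread between mice within groups, estimated over all 13 libraries, as housed and processed here. The test was checked on simulated data.

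Members and lists were chosen with earlier results of these data known. Named genes had to be called with no overlap between the groups. They were the 10 largest rises and falls with a lower-group mean of at least 2 CPM, up to 8 with at most 3 counts in CTL and at least 10 in every CPZ library, the 5 most abundant rises and falls, the 3 largest noncoding rises and falls, and, without the condition on overlap, up to 4 called members per list and members that break down its count. Other list members named were chosen after their values were seen. Alternatives used DESeq2 1.42.0, limma 3.58.1 and other filters, samples and call rules. Promoter windows came from RefSeq (GRCm38.p6). Exact intervals and floors of 3 counts cover counting error only. Some genes that the rule returned are not reported here.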

Additional observations from a re-analysis of the deposited data

Results flagged for a closer look

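In groups of 4 or 5 libraries, 188 groups of values were looked at for 1 library far from the rest of its group, and 9 were found, where chance gives about 1 in 20. No cause was tested. Among list scores (mean log2-CPM), the highest CPZ library stood apart for structural myelin (6.38, next 5.80) and for cortical excitatory neurons (6.95, next 6.68), and the lowest CPZ library for the cell cycle (2.46, next 2.93). In CTL, 1 library was low for myeloid transcription factors (3.23, next 3.40) and for ligands (4.59, next 4.67), and 1 was high for endothelial cells (4.68, next 4.50). Among single genes, on the log2-CPM scale, the highest CPZ library stood apart for Opalin (3.39, next 2.83) and Olfr111 (1.97, next 1.08), and the highest CTL library for Cst3 (9.38, next 9.16).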

How the results depend on the processing

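Genes changed numbered 1522, with 1148 higher and 374 lower. They were fewer by over 1.5 times on log2(TPM + 1) without a filter (992, with 760 higher and 232 lower) and with a fold change of at least 1.5 (916, with 119 lower), and on log2(TPM + 0.1) 759 were higher. Leaving out 1 library gave 1078 to 1451 genes changed, 886 to 1150 higher and 192 to 358 lower, the 192 without CPZ replicate 1. Of the 1522 calls, 56.0% to 99.3% were kept under each alternative, and the sign turned for at most 3, on the TPM scale. Requiring 10 counts in every library turned the median of chemokines to -0.0941 and of cytokines to -0.1402, since that filter leaves out the genes near 0 in CTL. The number of list members called stayed within 1.5 times in 2115 cases of a list, direction and alternative, and was lower in 107 and higher in 22. With 10 counts in every library 10 of 11 disease-associated, 4 of 4 Toll-like receptor and 0 of 4 chemokine genes tested were called higher. On the TPM scale 6 to 8 amino acid genes of ATF4 and 1 or 2 p53 targets were called higher. Deviations from the group means had r from -0.178 to 0.047 between same-numbered CTL and CPZ libraries and from -0.150 to 0.177 between those of different number. Such correlations over all genes cannot tell whether the numbers pair mice. With the replicate block 1172 genes were called, 919 higher and 253 lower. Time on study differed between the groups and cannot be told apart from cuprizone. Thinned to the smallest total of the series, 1279 were called of 14186 tested.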

Other observations

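Genes called higher lay side by side along chromosomes in 26 runs of at least 3 neighbouring tested genes, 11 of them of at least 4. Genes called lower lay in 0 such runs. Of the genes tested 7.66% were called higher and only 2.50% lower, so the 2 counts of runs cannot be compared directly. The runs were noticed after the values were seen and were not tested. The longest held 7 genes, H2-DMa, H2-DMb1, Psmb9, Tap1, Psmb8, Tap2 and H2-Ob, on mouse chromosome 17, with log2 fold changes from 0.85 to 2.41. A run of 5 on chromosome 11 held Taf15, Ccl9, Ccl6, Ccl3 and Ccl4, and another of 5 on chromosome 7 held Trim34a, Trim12a, Trim12c, Trim30a and Trim30d. Runs of 4 included the DNA sensors Aim2, Ifi209, Ifi207 and Ifi204 (2.21 to 5.30 on the log2 scale), the Slfn genes Slfn5, Slfn9, Slfn8 and Slfn2 (1.41 to 2.72) and Gbp5, Gbp7, Gbp3 and Gbp2 (0.82 to 1.67). Paralogs in such clusters can share reads, so the split between them is uncertain. Ch25h, which makes the oxysterol 25-hydroxycholesterol, stood in a run with Lipa, Ifit2 and Ifit3.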
